A study of Mus musculus with 4 samples.

Results

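Mitosis, kinetochore and spindle genes were followed in lineage-negative mouse bone marrow cells, the fraction rich in progenitors that remains once mature blood cells have been taken out. The set holds 60 genes picked for their known roles, at a time when earlier results of these data were known. Every array probe whose gene name, in the scanner table or in the platform's gene table, is one of these names was taken as a member probe. That gave 133 of the 45281 probes for these 60 of the 20136 genes named on the array. The Atad3afl/flMx1Cre group (2 samples) had floxed alleles of Atad3a, which encodes an ATPase of the inner mitochondrial membrane, together with Mx1Cre, a Cre recombinase driven by an interferon-inducible promoter. The Atad3afl/fl group (2 samples) had the same floxed alleles and no Cre. Both groups had received poly I:C, the synthetic RNA that switches Mx1Cre on, and all samples were taken on day 12 after it. The design therefore cannot tell effects of Cre from those of Atad3a loss. Mx1Cre acts in any interferon-responsive cell, so other cells of the mice may have recombined too. The sources used here give neither age nor sex, nor whether the samples came from separate or pooled animals, so the spread behind each p-value is that between samples and could be technical.

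A dividing cell enters mitosis when the kinase CDK1, freed by CDC25 phosphatases, is active with its cyclin partner. Chromosomes condense, their kinetochores attach to spindle microtubules, and the spindle checkpoint holds back the anaphase-promoting complex until every chromosome is attached. Most of these genes are transcribed mainly in late S, G2 and M phase, through promoter elements read by the DREAM and MYB-MuvB-FOXM1 complexes, so their transcripts are commonly read as a mark of cycling cells. In marrow, erythroid and early B lineage precursors are among the cells that divide most.

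The array measured 1 sample each, with 39.5% and 39.9% of probes detected in Atad3afl/flMx1Cre samples and 38.7% and 37.5% in Atad3afl/fl samples. Detection means a signal above negative control beads at a detection p under 0.05. Atad3a itself read 10.001 and 9.834 on the log2 intensity scale in Atad3afl/flMx1Cre cells, against 10.920 and 11.052 in Atad3afl/fl cells (log2 change -1.07, SE 0.13, limma adjusted p = 0.00866). Its single probe has no position relative to the deleted exons in the sources used here, so it cannot check the labels if it lies outside them. Precision is limited by the number of arrays: an exact permutation of 2 against 2 samples cannot give a p below 0.333. Levels below are background-corrected, quantile-normalized log2 intensities, which can be set side by side between samples for a probe but not between probes.

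Most mitotic genes were lower in Atad3afl/flMx1Cre cells. Of the 60 genes 55 had a probe detected on at least 2 of the 4 arrays and were tested, each by its brightest such probe, and 48 of the 55 were detected on all 4. At an adjusted p under 0.05 over all 18367 tested probes, 35 fell and 1 rose, and 19 did not pass. Among all 10443 named genes tested, 14.2% fell and 14.8% rose by the same rule, and 63.6% of the tested members fell. The median log2 change was -0.64, which is 1.56-fold lower, against 0.00 over all named genes. Quantile normalization gives all arrays the same distribution of values, so a median near 0 over all genes is largely set by it. With median scaling instead, the medians were -0.76 for members and -0.06 for all named genes. The members' median of -0.64 was the same with the 4 members undetected in both Atad3afl/flMx1Cre samples set at their bound. The falls were moderate: called members were 1.35-fold to 2.61-fold lower, and 11 of the 55 passed with at least a 2-fold fall, against 5.94% of all named genes, while 0 passed with a 2-fold rise, against 5.34%. These 11 count Tacc3, undetected in both Atad3afl/flMx1Cre samples, at its fitted value, and 10 remain with undetected members at their bounds. Without background correction and with the authors' processed values the count was 2 (Cenpk and Mki67, with 3.01% and 3.16% of all named genes), and with normexp using no control probes it was 3 (with 3.96%). With the mean of all detected probes it was 9, without Cdc25b and Cdc25c (with 5.60% of all named genes). The count also depended on single samples, and it was much smaller with either Atad3afl/flMx1Cre sample left out. Without Atad3afl/flMx1Cre replicate 1 the share of members was near that of all named genes. Both Atad3afl/flMx1Cre samples lay below both Atad3afl/fl samples for 49 members, and 36.2% of all named genes did so. The reverse held for Stmn1 alone, and for 36.8% of all named genes. All 36 members that passed were without overlap, so lack of overlap sets none of them apart. The median distance between the 2 samples of a group, over members, was 0.11 in Atad3afl/flMx1Cre cells and 0.13 in Atad3afl/fl cells on the log2 scale. Across the 55 members, each at its own probe and all from the same 4 arrays, the change and the mean level had a Pearson's r of 0.02 and a Spearman's rho of 0.02.

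The number of calls depended on single samples, while the median stayed between -0.69 and -0.62. Without Atad3afl/flMx1Cre replicate 1, 3 members fell and the median was -0.62, and without Atad3afl/flMx1Cre replicate 2, 5 fell with a median of -0.69. Without Atad3afl/fl replicate 1 or Atad3afl/fl replicate 2, 28 and 22 fell, with medians of -0.63 for each. In the same 4 fits 4.44%, 4.18%, 13.2% and 8.95% of all named genes fell. The calls that ended had adjusted p-values of 0.0539 to 0.211, 0.0522 to 0.200, 0.0519 to 0.0735 and 0.0505 to 0.116 in that order. Cdc25b and Cenpk fell in each of these 4 fits. Cenph also fell without Atad3afl/flMx1Cre replicate 1, and Cdc25c, Kif18a and Aspm without Atad3afl/flMx1Cre replicate 2. Without Atad3afl/fl replicate 1 the calls on Plk1, Plk4, Cdca8, Spc24, Kif2c, Kif18a, Kif22, Cdc20 and Cdca3 ended, and without Atad3afl/fl replicate 2 those on Plk4, Bub3, Aurkb, Incenp, Cdca8, Spc24, Kif2c, Kif4, Kif18a, Kif22, Stmn1, Racgap1, Ncapd2 and Cdca3. The log2 change of no called member moved by over 1.5 times when any 1 of the 4 samples was left out. Background treatment mattered for dim probes: without background correction the log2 changes of Cdc25b, Cdc25c, Ttk, Tacc3, Racgap1 and Pttg1 were -0.83, -0.67, -0.36, -0.35, -0.17 and -0.35, and of these calls that on Racgap1 ended. With no detection filter the calls on Cdk1, Aurkb and Kif2c ended (adjusted p = 0.0634 to 0.0663). With the mean of all detected probes those on Cdca8 and Spc24 ended (0.0849 to 0.150).

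Markers of blood cell types changed too, in differing directions, and their part in the result was not tested. By the same rule 14.2% of all named genes fell and 14.8% rose. Of 15 tested erythroid markers 14 fell and 0 rose by limma (15 and 0 at an unadjusted p under 0.05), with a median log2 change of -3.94. Their summed intensity was 3431 to 10587 in Atad3afl/flMx1Cre samples and 72329 to 74706 in Atad3afl/fl samples, and 1 of the 15 was undetected in both Atad3afl/flMx1Cre samples. Of 12 B lymphoid markers 11 fell and 0 rose (11 and 0 unadjusted), with a median of -2.59 and summed intensities of 3064 to 3282 in Atad3afl/flMx1Cre samples and 23344 to 24174 in Atad3afl/fl samples. Stem and early progenitor markers went the other way, with 8 of 11 higher and 2 lower (median 1.04), and summed intensities of 8195 to 8307 in Atad3afl/flMx1Cre samples and 5093 to 5356 in Atad3afl/fl samples. Of 11 T and NK cell markers 7 rose (median 0.95) and of 8 megakaryocyte markers 5 rose and 1 fell (median 1.30). Of 14 neutrophil and monocyte precursor markers 5 rose and 2 fell (median 0.23), with sums of 40521 to 40848 in Atad3afl/flMx1Cre samples and 41183 to 43755 in Atad3afl/fl samples. The shares that fell were near that of all named genes for neutrophil and monocyte (14.3%), megakaryocyte (12.5%) and stem markers (18.2%), while 35.7%, 62.5% and 72.7% rose. In both Atad3afl/fl samples 2 stem, 1 T and NK cell and 1 megakaryocyte marker were undetected. In both Atad3afl/flMx1Cre samples 1 B lymphoid marker was undetected. In whole samples such as these, fewer cells of a type and less RNA per cell cannot be told apart. Summed over the 55 members, intensity was 40198 to 42394 in Atad3afl/flMx1Cre samples and 64217 to 65523 in Atad3afl/fl samples.

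**Figure D1:**
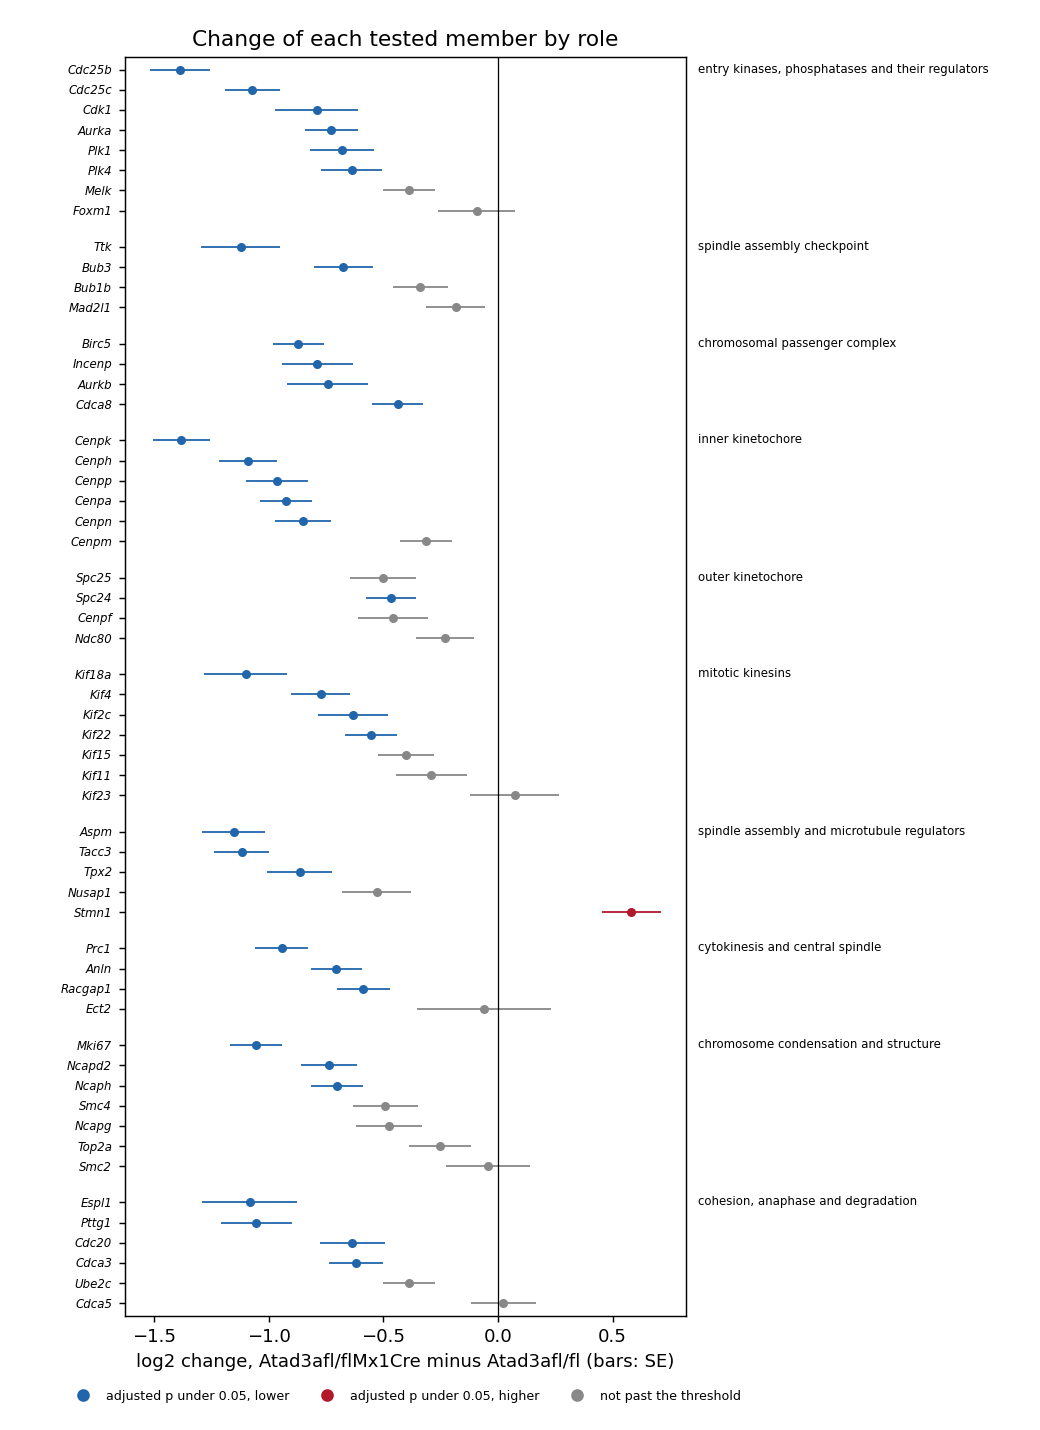
Log2 change of each of the 55 tested members (points, Atad3afl/flMx1Cre minus Atad3afl/fl) with its SE (bars), grouped by role. The 35 genes that fell lie between -1.39 and -0.44, the 19 grey ones did not pass, and Stmn1 at 0.58 is the only point that passed above 0.

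Promoter windows of these genes are shown because the elements that time their transcription lie close to the start of the gene. RefSeq windows of 300 bases (build GRCm38.p6, 250 bases before the annotated start and 50 from it on) were matched by symbol for 51 of the 60 genes. Where a gene had several windows, only the first listed was searched. The cell cycle genes homology region was searched as TTTGAA or TTTAAA, and the binding motif of the factor NF-Y as CCAAT, both on either strand. TTTGAA or TTTAAA was found in 37 of the 51 windows (72.5%), against 19.4% of the windows of 8403 named genes tested and 27.8% of all 27025 windows. CCAAT was present in 35 (68.6%), against 39.0% and 37.9%. Windows with both numbered 30 (58.8%), against 7.99% and 10.9%. A match to letters is a description and not a shown site. Among tested members, TTTGAA or TTTAAA was found in 22 of 30 windows of members that fell (73.3%) and in 13 of 17 of the others (76.5%). Windows of Cdc25b and Cenpk, the members with the largest falls, of Cdca5, with the smallest change, and of Cdk1 and Plk1, central kinases of mitosis, are given 5′ to 3′ with the matches in capitals.
Cdc25b (chr2:131186698-131186997, plus strand): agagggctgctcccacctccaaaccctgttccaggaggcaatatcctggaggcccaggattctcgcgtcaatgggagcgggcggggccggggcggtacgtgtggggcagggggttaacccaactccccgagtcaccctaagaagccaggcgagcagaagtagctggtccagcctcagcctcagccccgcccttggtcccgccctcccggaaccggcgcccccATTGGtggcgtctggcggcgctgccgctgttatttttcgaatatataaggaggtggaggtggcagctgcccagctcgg
Cenpk (chr13:104228361-104228660, plus strand): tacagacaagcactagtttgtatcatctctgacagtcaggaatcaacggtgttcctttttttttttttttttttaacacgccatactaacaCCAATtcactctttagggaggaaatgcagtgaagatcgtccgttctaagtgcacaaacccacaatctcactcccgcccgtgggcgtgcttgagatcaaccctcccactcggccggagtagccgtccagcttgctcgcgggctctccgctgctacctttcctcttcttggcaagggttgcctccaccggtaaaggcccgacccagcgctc
Cdca5 (chr19:6084847-6085146, plus strand): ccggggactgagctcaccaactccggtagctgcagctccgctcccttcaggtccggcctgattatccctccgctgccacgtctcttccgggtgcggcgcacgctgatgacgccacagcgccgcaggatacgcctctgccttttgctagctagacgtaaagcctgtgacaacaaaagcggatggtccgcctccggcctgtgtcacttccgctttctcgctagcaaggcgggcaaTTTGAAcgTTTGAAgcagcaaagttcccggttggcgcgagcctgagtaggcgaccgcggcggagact
Cdk1 (chr10:69352863-69353162, minus strand): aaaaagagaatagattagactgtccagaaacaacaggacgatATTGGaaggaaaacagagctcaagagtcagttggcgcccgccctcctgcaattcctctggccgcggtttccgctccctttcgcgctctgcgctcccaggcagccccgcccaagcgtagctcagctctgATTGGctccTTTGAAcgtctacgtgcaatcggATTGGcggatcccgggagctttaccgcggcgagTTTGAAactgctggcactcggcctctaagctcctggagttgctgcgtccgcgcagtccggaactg
Plk1 (chr7:122159185-122159484, plus strand): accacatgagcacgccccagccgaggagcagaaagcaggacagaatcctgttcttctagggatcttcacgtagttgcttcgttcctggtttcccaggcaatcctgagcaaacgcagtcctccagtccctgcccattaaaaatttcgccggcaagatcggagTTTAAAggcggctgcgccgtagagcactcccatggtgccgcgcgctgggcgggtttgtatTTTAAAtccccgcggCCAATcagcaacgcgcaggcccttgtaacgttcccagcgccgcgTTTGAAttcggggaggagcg
The windows shown for Cdc25b and Cenpk each hold 1 CCAAT match, and neither holds TTTGAA or TTTAAA. In Cdc25b the match is read on the opposite strand as ATTGG, at 28 bases before the start. Cenpk has 3 listed windows, of which only the first was searched, so its other starts may differ. That of Cdca5 holds 2 TTTGAA matches, beginning 17 and 9 bases before the start. Cdk1 has TTTGAA at 71 and 15 bases before the start and 3 CCAAT matches on the opposite strand. Plk1 has 3 matches to TTTGAA or TTTAAA and 1 CCAAT. The Stmn1 promoter is not shown.

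Most kinases and phosphatases that start mitosis fell, while the transcription factor gene Foxm1 and the kinase gene Melk did not pass. Of the 8 genes 6 fell and 0 rose (7 and 0 at an unadjusted p under 0.05). Cdc25b, the phosphatase that first activates CDK1, read 6.42 and 6.61 in Atad3afl/flMx1Cre cells, against 7.84 and 7.95 in Atad3afl/fl cells, and was 2.61-fold lower (log2 change -1.39, SE 0.13, limma adjusted p = 0.00519). Cdc25c, which amplifies that activation, read 6.75 and 6.88, against 7.90 and 7.87 in Atad3afl/fl cells (2.10-fold lower, SE 0.12 on the log2 scale). By these probes the groups of both phosphatases were far apart compared with the spread within them. Their second tested probes fell less. That of Cdc25b, detected in 1 of the 2 Atad3afl/flMx1Cre samples, was 1.52-fold lower (log2 change -0.60, adjusted p = 0.0372). That of Cdc25c was 1.83-fold lower (log2 change -0.87, adjusted p = 0.0128). Cdk1, the kinase that drives entry into mitosis, read 10.34 and 10.37 in Atad3afl/flMx1Cre cells, against 11.37 and 10.93 in Atad3afl/fl cells, whose samples differed more (1.73-fold lower, SE 0.18, adjusted p = 0.0376). The polo and Aurora kinases fell by like amounts, without overlap between groups. Aurka, the kinase of centrosome maturation, read 9.71 and 9.79 in Atad3afl/flMx1Cre cells, against 10.50 and 10.45 in Atad3afl/fl cells (1.65-fold lower, SE 0.12). Plk1, which acts from entry to cytokinesis, read 10.42 and 10.53 in Atad3afl/flMx1Cre cells, against 11.28 and 11.04 in Atad3afl/fl cells (1.60-fold lower, SE 0.14). Plk4, the kinase that licenses centriole duplication, read 8.16 and 8.30 in Atad3afl/flMx1Cre cells, against 8.96 and 8.78 in Atad3afl/fl cells (1.56-fold lower, SE 0.13). In these 3 kinases the Atad3afl/flMx1Cre samples lay closer to each other than to either Atad3afl/fl sample. Foxm1, the transcription factor that switches on many G2 and M phase genes, read 8.08 and 8.46 in Atad3afl/flMx1Cre cells, against 8.33 and 8.40 in Atad3afl/fl cells. Its groups overlapped, and the log2 change of -0.09 has a 95% interval of -0.53 to 0.35 (adjusted p = 0.702). The second tested Foxm1 probe gave a log2 change of -0.32, also with overlap and without passing (adjusted p = 0.261). Melk, a kinase expressed with FOXM1 targets, had a log2 change of -0.39 (interval -0.68 to -0.09, adjusted p = 0.0649).

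The spindle assembly checkpoint, which delays anaphase while kinetochores are unattached, was measured by 4 of its 5 genes. Ttk, the kinase also called MPS1 that starts checkpoint signalling, was not detected in either Atad3afl/flMx1Cre sample. Its probe read 4.74 and 4.93 there and 5.78 and 6.14 in Atad3afl/fl cells. On the background-corrected scale the fall is at least 2.01-fold (adjusted p = 0.0146). A bound of this kind sets the undetected group at the higher of the probe's own value and the lowest detected signal of each array. It holds on the background-corrected scale only. Without background correction the fitted falls of Ttk, Tacc3 and Racgap1 were smaller than their bounds. Bub3, which brings the BUB kinases to kinetochores, was 1.60-fold lower (SE 0.13, adjusted p = 0.0245), with 7.58 and 7.42 in Atad3afl/flMx1Cre cells, against 8.11 and 8.24 in Atad3afl/fl cells. Bub1b, which encodes the inhibitor BUBR1, and Mad2l1, which encodes MAD2, had log2 changes of -0.34 and -0.18 without passing (adjusted p = 0.103 and 0.330). In both genes the Atad3afl/flMx1Cre samples lay below the Atad3afl/fl samples, as they did for 36.2% of all named genes. Bub1 was below detection on all arrays and was not tested.

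All 4 genes of the chromosomal passenger complex fell. This complex of Aurora B kinase with INCENP, survivin and borealin corrects faulty attachments and later guides cytokinesis. Birc5, which encodes survivin, read 10.72 and 10.69 in Atad3afl/flMx1Cre cells, against 11.56 and 11.59 in Atad3afl/fl cells (1.83-fold lower, SE 0.11, adjusted p = 0.00953). Its 2 other tested probes gave log2 changes of -0.76 and -0.86. The kinase and its scaffold had larger errors, because their samples differed more within a group. Incenp, the scaffold, read 9.70 and 9.91 in Atad3afl/flMx1Cre cells, against 10.46 and 10.72 in Atad3afl/fl cells (1.73-fold lower, SE 0.15). Aurkb, the kinase, read 9.51 and 9.55 in Atad3afl/flMx1Cre cells, against 10.06 and 10.48 in Atad3afl/fl cells (1.67-fold lower, SE 0.18). Cdca8, which encodes borealin, had the smallest fall of the called members. It read 10.86 and 10.88 in Atad3afl/flMx1Cre cells, against 11.30 and 11.32 in Atad3afl/fl cells (1.35-fold lower, SE 0.11, adjusted p = 0.0467), and a second probe gave -0.15 (adjusted p = 0.598).

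Most inner kinetochore genes, which build the platform on centromeric chromatin, fell. Of 6 inner kinetochore genes 5 fell and 0 rose (6 and 0 at an unadjusted p under 0.05), with a median of -0.94, and of 4 tested outer kinetochore genes 1 fell and 0 rose (3 and 0 unadjusted), with a median of -0.46. The difference between the layers was not tested. Cenpk, of the constitutive centromere complex, read 8.72 and 8.58 in Atad3afl/flMx1Cre cells, against 10.10 and 9.97 in Atad3afl/fl cells, and was 2.60-fold lower (SE 0.13, adjusted p = 0.00480). Cenph, its partner in that complex, read 7.82 and 7.67, against 8.89 and 8.78 in Atad3afl/fl cells (2.13-fold lower, SE 0.13). For both genes the groups were far apart compared with the spread within them. Cenpa, the histone H3 variant that marks the centromere, was 1.90-fold lower (12.06 and 12.07 in Atad3afl/flMx1Cre cells, against 12.94 and 13.03 in Atad3afl/fl cells, adjusted p = 0.00886). Further genes of the centromere complex fell without overlap. Cenpp read 8.14 and 8.12 in Atad3afl/flMx1Cre cells, against 9.22 and 8.98 in Atad3afl/fl cells (1.95-fold lower). Cenpn, which binds the CENPA nucleosome, read 9.31 and 9.44 in Atad3afl/flMx1Cre cells, against 10.27 and 10.18 in Atad3afl/fl cells (1.80-fold lower), and its second probe gave the same log2 change of -0.85. Cenpm was lower in both Atad3afl/flMx1Cre samples, as were 36.2% of all named genes, without passing (log2 change -0.31, adjusted p = 0.105). In the outer layer, Spc24 of the microtubule-binding NDC80 complex read 8.86 and 8.88 in Atad3afl/flMx1Cre cells, against 9.34 and 9.33 in Atad3afl/fl cells (1.38-fold lower, SE 0.11, adjusted p = 0.0401). A second Spc24 probe gave a log2 change of -0.19 without passing (adjusted p = 0.346). Spc25 and Ndc80, partners of Spc24 in that complex, had log2 changes of -0.50 and -0.23 (adjusted p = 0.0626 and 0.237). Cenpf, a protein of the fibrous corona, had -0.46 (adjusted p = 0.0881). Nuf2 and the kinetochore motor gene Cenpe were not detected well enough to be tested.

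Mitotic kinesins, motors that move chromosomes and slide microtubules, ranged from a 2-fold fall to no measurable change. Of 7 tested 4 fell and 0 rose (5 and 0 at an unadjusted p under 0.05). Kif18a, which dampens chromosome movement at the spindle's middle, read 7.004 and 7.430 in Atad3afl/flMx1Cre cells, against 8.374 and 8.261 in Atad3afl/fl cells (2.14-fold lower, SE 0.18, adjusted p = 0.0172). The Atad3afl/flMx1Cre samples differed by more than those of most members. Kif4, a chromokinesin of the central spindle, read 8.91 and 9.10 in Atad3afl/flMx1Cre cells, against 9.74 and 9.82 in Atad3afl/fl cells (1.71-fold lower, SE 0.13). Kif2c, the depolymerase MCAK, read 8.39 and 8.65 in Atad3afl/flMx1Cre cells, against 9.05 and 9.25 in Atad3afl/fl cells (1.55-fold lower, SE 0.15). Kif22, a chromokinesin that pushes chromosome arms, differed least among the 4 and varied least within groups. It read 10.42 and 10.43 in Atad3afl/flMx1Cre cells, against 11.01 and 10.95 in Atad3afl/fl cells (1.47-fold lower, SE 0.11). Kif15 and Kif11, which encodes the bipolar spindle motor Eg5, had log2 changes of -0.40 and -0.29 (adjusted p = 0.0721 and 0.218). Kif23, a motor of the central spindle complex centralspindlin, read 11.07 and 11.25 in Atad3afl/flMx1Cre cells, against 10.86 and 11.32 in Atad3afl/fl cells, and the groups overlapped. Its log2 change of 0.07 has an interval of -0.43 to 0.58 (adjusted p = 0.795). Kif20a was below detection.

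Genes of spindle assembly split, and they hold the single member that rose. Of 5 tested 3 fell and 1 rose (4 and 1 at an unadjusted p under 0.05). Aspm, which organises spindle poles, read 7.07 and 7.30 in Atad3afl/flMx1Cre cells, against 8.39 and 8.28 in Atad3afl/fl cells (2.22-fold lower, SE 0.14, adjusted p = 0.00833). Tpx2, the activator of Aurora A on spindle microtubules, read 8.09 and 8.17 in Atad3afl/flMx1Cre cells, against 9.12 and 8.86 in Atad3afl/fl cells (1.82-fold lower, SE 0.14, adjusted p = 0.0168). Tacc3, which stabilises kinetochore fibres, was undetected in both Atad3afl/flMx1Cre samples. Its probe read 4.77 and 4.82 in Atad3afl/flMx1Cre cells, against 5.98 and 5.85 in Atad3afl/fl cells. On the background-corrected scale Tacc3 was at least 1.95-fold lower (adjusted p = 0.00649). Nusap1, a microtubule bundling protein, had a log2 change of -0.53 (adjusted p = 0.0615). Stmn1, which encodes stathmin, a protein that takes microtubules apart, went the other way. It read 8.87 and 8.98 in Atad3afl/flMx1Cre cells, against 8.43 and 8.26 in Atad3afl/fl cells, without overlap (1.5-fold higher, log2 change 0.58, SE 0.13, adjusted p = 0.0343). The call on Stmn1 ended without Atad3afl/flMx1Cre replicate 1 (adjusted p = 0.129), without Atad3afl/flMx1Cre replicate 2 (0.178) and without Atad3afl/fl replicate 2 (0.0844), and with median scaling in place of quantile normalization (0.0533). Hmmr was below detection.

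Of 4 cytokinesis genes 3 fell and 0 rose (3 and 0 at an unadjusted p under 0.05). Prc1, which bundles the central spindle, read 11.12 and 11.23 in Atad3afl/flMx1Cre cells, against 12.11 and 12.12 in Atad3afl/fl cells (1.92-fold lower, SE 0.12, adjusted p = 0.00886). Anln, the contractile ring scaffold anillin, read 9.85 and 9.90 in Atad3afl/flMx1Cre cells, against 10.61 and 10.55 in Atad3afl/fl cells (1.63-fold lower, SE 0.11). Racgap1, the partner of the Kif23 product in centralspindlin, was undetected in both Atad3afl/flMx1Cre samples. Its probe read 4.90 and 4.83 in Atad3afl/flMx1Cre cells, against 5.41 and 5.50 in Atad3afl/fl cells. On the background-corrected scale Racgap1 was at least 1.42-fold lower (adjusted p = 0.0265). Its call ended with the authors' processed values (adjusted p = 0.133), without background correction (0.120) and with normexp using no control probes (0.0706). It also ended without Atad3afl/flMx1Cre replicate 1 (0.123), Atad3afl/flMx1Cre replicate 2 (0.152) or Atad3afl/fl replicate 2 (0.0679). Ect2, the exchange factor that activates RhoA at the cell's middle, was near background, with 4.84 and 4.96 in Atad3afl/flMx1Cre cells, against 5.38 and 4.55 in Atad3afl/fl cells. It was detected on 1 array of each group and its groups overlapped.

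Among genes of chromosome condensation the proliferation antigen moved most, and of 7 tested 3 fell and 0 rose (5 and 0 at an unadjusted p under 0.05). Mki67, which encodes Ki-67 and coats mitotic chromosomes, read 10.82 and 10.87 in Atad3afl/flMx1Cre cells, against 11.88 and 11.92 in Atad3afl/fl cells (2.08-fold lower, SE 0.11, adjusted p = 0.00649). A second Mki67 probe gave a log2 change of -1.24. Condensin I, which compacts chromosome arms, fell in 2 of its 3 own subunits. Ncapd2 read 10.04 and 10.12 in Atad3afl/flMx1Cre cells, against 10.75 and 10.89 in Atad3afl/fl cells (1.67-fold lower, SE 0.12). Ncaph, the kleisin that closes the ring, read 9.45 and 9.39 in Atad3afl/flMx1Cre cells, against 10.10 and 10.15 in Atad3afl/fl cells (1.63-fold lower, SE 0.11). The third non-SMC subunit gene, Ncapg, had a log2 change of -0.47 by its brightest probe (adjusted p = 0.0706). The ATPase subunits shared by both condensins did not pass: Smc4 had -0.49 (adjusted p = 0.0629) and Smc2 -0.04, with an interval of -0.52 to 0.44. Top2a, the topoisomerase that untangles sister chromatids, read 11.05 and 11.12 in Atad3afl/flMx1Cre cells, against 11.22 and 11.45 in Atad3afl/fl cells, without passing (log2 change -0.25, adjusted p = 0.222). Its 2 dimmer probes fell, by log2 changes of -0.77 and -0.66 (adjusted p = 0.0195 and 0.0236), and the mean over its 3 probes passed too (-0.56, adjusted p = 0.0210).

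At the step of chromatid separation 4 of 6 genes fell and 0 rose (5 and 0 at an unadjusted p under 0.05). Espl1, the protease separase, was 2.12-fold lower, with 7.42 and 7.50 in Atad3afl/flMx1Cre cells, against 8.28 and 8.81 in Atad3afl/fl cells (SE 0.21, adjusted p = 0.0244). Pttg1, securin, which holds separase inactive, read 4.95 and 5.20 in Atad3afl/flMx1Cre cells, against 6.03 and 6.23 in Atad3afl/fl cells (2.08-fold lower, SE 0.15, adjusted p = 0.0129). It was detected in 1 of the 2 Atad3afl/flMx1Cre samples, so the protease and its inhibitor were both lower, the inhibitor near background. Cdc20, the activator of the anaphase-promoting complex, read 10.31 and 10.42 in Atad3afl/flMx1Cre cells, against 11.13 and 10.87 in Atad3afl/fl cells (1.55-fold lower, SE 0.14). Cdca3, an adaptor that marks WEE1 for destruction, read 10.63 and 10.76 in Atad3afl/flMx1Cre cells, against 11.33 and 11.30 in Atad3afl/fl cells (1.54-fold lower, SE 0.12). Neither gene had overlapping groups. Ube2c, the ubiquitin-conjugating enzyme of that complex, was undetected in both Atad3afl/flMx1Cre samples. Its probe read 4.77 and 4.83 in Atad3afl/flMx1Cre cells, against 5.20 and 5.17 in Atad3afl/fl cells, which is at least 1.18-fold lower without passing (adjusted p = 0.0644). Cdca5, which encodes sororin, the protector of sister cohesion, read 8.68 and 8.87 in Atad3afl/flMx1Cre cells, against 8.65 and 8.85 in Atad3afl/fl cells. Its samples spread as far within a group as between groups (log2 change 0.02, interval -0.35 to 0.39, adjusted p = 0.909).

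**Figure D2:**
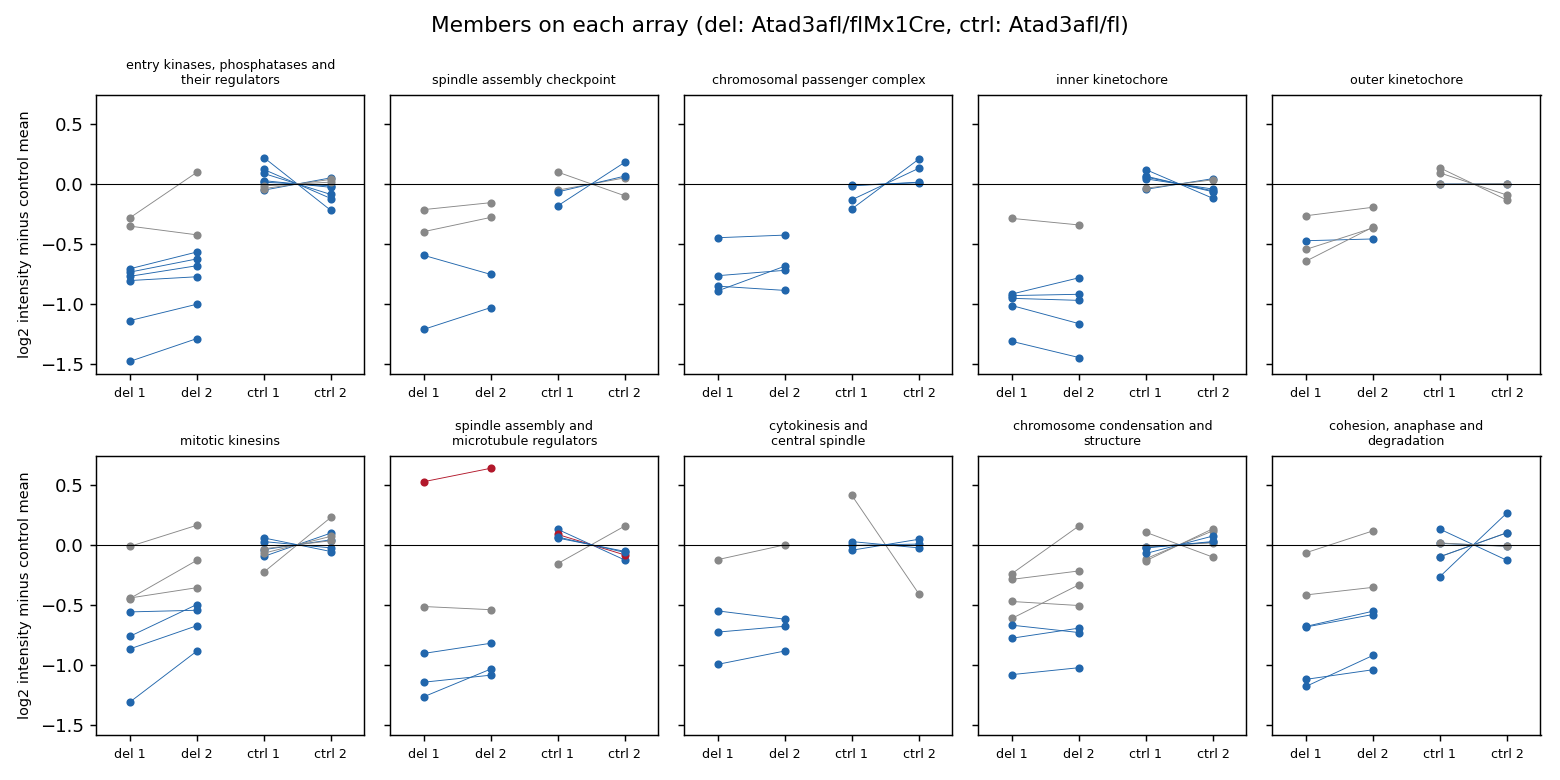
Log2 intensity of each tested member on each array minus its mean in Atad3afl/fl samples, in a panel per role (del, Atad3afl/flMx1Cre; ctrl, Atad3afl/fl; blue fell, red rose, grey did not pass). In 49 of 55 members both Atad3afl/flMx1Cre points lie below both Atad3afl/fl points, and Stmn1 is the red line above 0.

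Repeated probes mostly gave the same picture. Of the 55 members 25 had more than 1 tested probe, and in 22 of these every probe was lower in Atad3afl/flMx1Cre cells. Of all 92 tested member probes 52 fell and 2 rose. No member had probes that passed in opposite directions. Probes of Cdc20, Kif23 and Melk differed in sign. The 3 other Cdc20 probes gave log2 changes of -1.03, -0.83 and 0.11, and the last read 8.07 and 8.08 in Atad3afl/flMx1Cre cells, against 8.56 and 7.37 in Atad3afl/fl cells, so its control samples disagreed widely. The dimmest Kif23 probe was undetected in Atad3afl/fl cells and rose at least 1.10-fold (adjusted p = 0.0428), while another gave -0.45 (adjusted p = 0.0903). The dimmest Melk probe had a log2 change of 0.73 without passing (adjusted p = 0.0864). Nusap1, Top2a and Ncapg did not pass by their brightest probe and had another probe that fell. A probe reads only the transcripts that hold its sequence, and transcript forms were not resolved here.

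**Figure D3:**
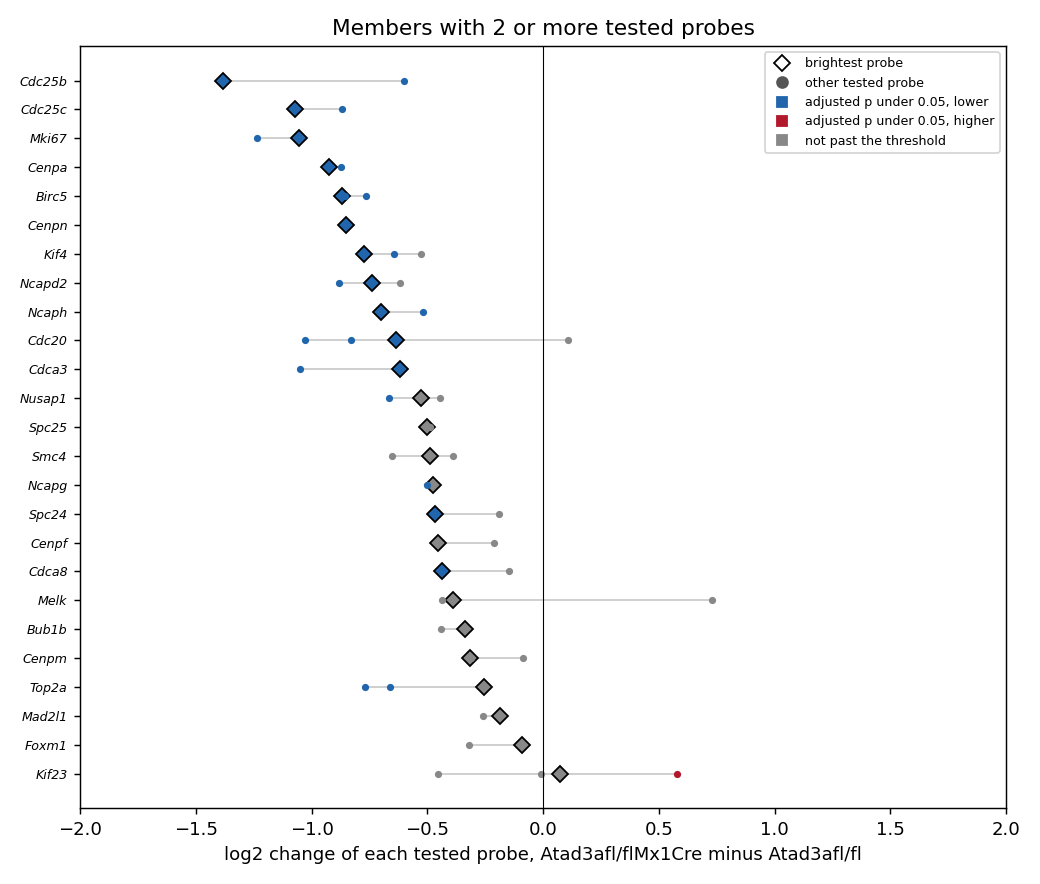
Log2 change (Atad3afl/flMx1Cre minus Atad3afl/fl) of every tested probe of the 25 members with more than 1, with diamonds for the brightest probe and dots for the others. In 22 members all probes lie below 0, and those of Cdc20, Melk and Kif23 lie on both sides.

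Further genes of mitosis were counted in 5 other lists, and their difference from the members was not tested. Of 109 tested genes 21 fell (19.3%) and 2 rose (1.83%), against 14.2% and 14.8% of all named genes, with a median log2 change of -0.30. In this fit the share that fell was near that of all genes, and it varied with the processing. It was 28.4% against 16.5% with the authors' processed values and 33.0% against 16.6% with median scaling. With the replicate numbers as a block it was 10.1% against 11.1%. Both Atad3afl/flMx1Cre samples lay below both Atad3afl/fl samples for 73 of the 109, and above them for 10. Of all named genes 36.2% and 36.8% did so. Without Atad3afl/flMx1Cre replicate 1 or Atad3afl/flMx1Cre replicate 2, 2 fell and 0 rose in each fit (24 and 2, and 26 and 1, at an unadjusted p under 0.05). That is 1.83% lower in each, below the 4.44% and 4.18% of all named genes in those fits. Without Atad3afl/fl replicate 2, 10 fell (9.17%, against 8.95% of all) and 2 rose, and without Atad3afl/fl replicate 1, 16 fell (14.7%, against 13.2%) and 4 rose. Of 26 further kinetochore genes 6 fell and 0 rose (12 and 0 at an unadjusted p under 0.05), led by Cenpl (log2 change -0.98), Kntc1, of the complex that recruits dynein (-0.95), and Spdl1, which encodes the dynein adaptor spindly (-0.74). Of 38 spindle, centrosome and cytokinesis genes 7 fell, led by the kinesins Kif18b (-1.23) and Kifc1 (-1.05) and by Fam83d (-1.18), and 2 rose. The genes that rose were Cep55, which brings the abscission machinery to the midbody (0.85, adjusted p = 0.0115), and Depdc1b (0.70, adjusted p = 0.0408). Of 14 cohesin and condensin II genes 6 fell and 0 rose (8 and 0 unadjusted), with Ncapg2 of condensin II lowest (-1.29), followed by the cohesin ATPase gene Smc3 (-0.62) and Ncapd3 (-0.59). Of 19 further regulators 1 fell (5.26%, below the share of all genes) and 0 rose (6 and 0 unadjusted): Mybl2, which encodes the MYB partner of MuvB, with 9.03 and 9.23 in Atad3afl/flMx1Cre cells, against 10.38 and 10.37 in Atad3afl/fl cells (log2 change -1.25, SE 0.13, adjusted p = 0.00596). Of 12 genes of the anaphase-promoting complex 1 fell (8.33%, also below it) and 0 rose (4 and 0 unadjusted), the activator Fzr1 (-0.56, adjusted p = 0.0303).

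DNA replication genes, transcribed mainly around the start of S phase, were mostly lower too. Of 48 tested 27 fell and 0 rose by limma (38 and 0 at an unadjusted p under 0.05), with a median log2 change of -0.60, against -0.64 for the mitotic genes. Without Atad3afl/flMx1Cre replicate 1, Atad3afl/flMx1Cre replicate 2 or Atad3afl/fl replicate 2, 4, 1 and 18 fell in that order (8.33%, 2.08% and 37.5%), against 4.44%, 4.18% and 8.95% of all named genes. The lowest were Orc1 and Cdc6, which load the replicative helicase (log2 changes -1.98 and -1.68), and Mcm7, a helicase subunit (-1.22). The cyclins did not share a direction: of 8 tested 5 fell and 2 rose. Ccnb1, the mitotic partner of CDK1, fell with it (9.66 and 9.93 in Atad3afl/flMx1Cre cells, against 10.94 and 11.01 in Atad3afl/fl cells, log2 change -1.18, adjusted p = 0.00849), and Ccne1 and Ccnf fell by log2 changes of -2.01 and -1.07. The G1 cyclin genes Ccnd1 and Ccnd2 rose, by 2.53 and 1.95 (adjusted p = 0.00176 and 0.00208). The third D-type gene, Ccnd3, named here after its values were seen, fell (log2 change -0.82, adjusted p = 0.0154).

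**Figure D4:**
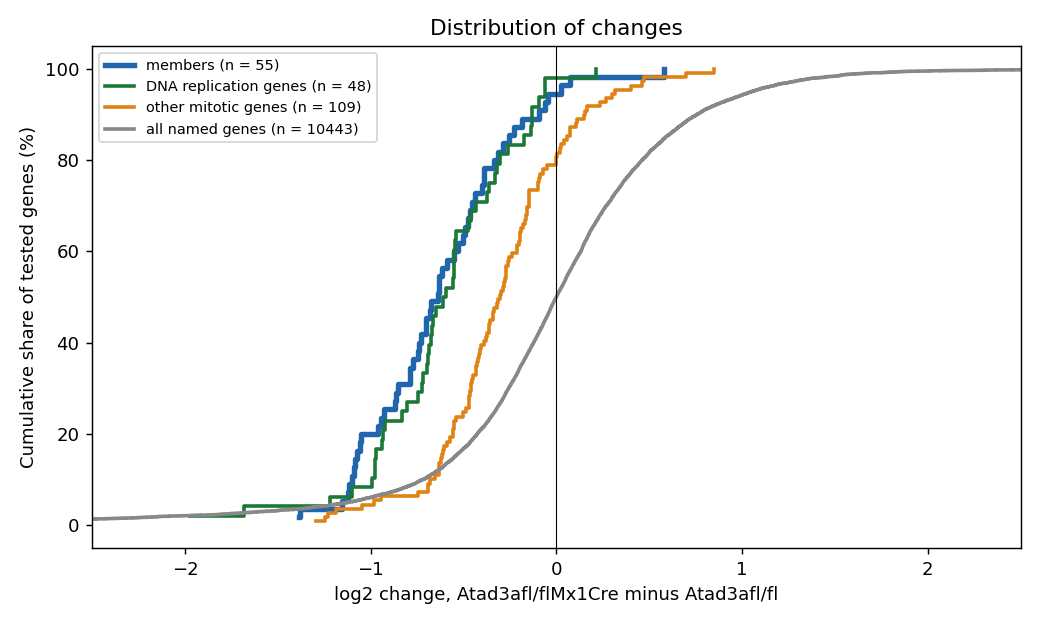
Cumulative share (%) of tested genes at or below each log2 change (Atad3afl/flMx1Cre minus Atad3afl/fl) for the 55 members, 48 DNA replication genes, 109 other mitotic genes and all 10443 named genes. The curves of members and replication genes run close together, with medians of -0.64 and -0.60. They lie left of the other mitotic genes (-0.30) and of all genes (0.00, a median that quantile normalization holds near 0). The axis ends at 2.5 on either side.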

How the data were processed

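Illumina mouse WG-6 v2 bead arrays were run on 4 samples, 1 array each. Per the file headers, the deposited scanner table gives a non-normalized signal intensity and a detection p-value for each probe. GenomeStudio made the values, per the submitters' processing notes. The sources used here do not give its version, any background subtraction or the normalization. The deposited series matrix, whose intensity values are quantile normalized by their distribution, served as an alternative.

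The neqc steps of limma 3.58.1 (R 4.3.3) were run on the signals (normexp with negative controls inferred from detection p-values, offset 16, quantile normalization, log2). Correction and offset set how large changes of dim probes look. A probe was kept if 2 or more arrays had a detection p under 0.05 for it (18367 probes). Names came from the platform table (34885 probes with 1 gene, 18 with several, left unnamed), updated by Entrez ID through RefSeq (34807 matched), and otherwise from the scanner table's own name where RefSeq lists it (2209), which named 6 member probes; 8187 stayed unnamed. The platform annotation can be old. Groups were compared with lmFit and eBayes (2 residual and 2.72 prior degrees of freedom), without a replicate block, with Benjamini-Hochberg adjustment over all kept probes. The script was tested on simulated data. Members and lists were chosen with earlier results of these data known. The genes named are Atad3a, any member, and up to 3 genes per direction from each other list. Ccnd3 is an exception, added after its values were seen. Promoter windows shown are those of the 2 members with the largest falls, the member with the smallest change, and Cdk1 and Plk1 for their role.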

Additional observations from a re-analysis of the deposited data

How the results depend on the processing

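No called member changed sign under any alternative run. With the groups' replicate numbers as a replicate block, 28 members fell and 0 rose by limma (42 and 1 at an unadjusted p under 0.05), and 11 other mitotic genes fell (10.1%, against 11.1% of all named genes). The block ended the calls on Plk1, Plk4, Cdca8, Spc24, Kif22, Stmn1, Racgap1 and Cdc20 (adjusted p = 0.0511 to 0.0872). The numbers were not shown to pair samples, as deviations of same-numbered samples correlated at 0.03. Leaving out each array in turn gave 3 to 28 members lower and 0 to 1 higher (32 to 42 and 0 to 1 unadjusted), 2 to 16 other mitotic genes lower and 0 to 4 higher, 1 to 25 DNA replication genes lower, and 436 to 1379 of all named genes lower and 295 to 1307 higher. With a fall or rise of at least 2-fold, 11 members were lower and 0 higher; 10 of these were lower with undetected members at their bounds, and 2 passed without background correction. Median scaling gave 0 members higher (1 unadjusted) and 36 other mitotic genes lower and 1 higher. The members' median was then -0.76, against -0.06 over all named genes. Without a detection filter 1 other mitotic gene was higher, and an intensity trend with a robust prior gave 33 lower. Leaving out the background correction put the members' median at -0.50, normexp with no control probes (offset 50) at -0.56 and the authors' processed values at -0.54. Signal over background limits the dim members: without background correction the log2 changes of Ttk, Tacc3, Racgap1 and Pttg1 were -0.36, -0.35, -0.17 and -0.35, and those of Cdc25b and Cdc25c -0.83 and -0.67; normexp without control probes gave -0.56, -0.55, -0.27 and -0.54 for the dim 4, and the authors' values -0.33, -0.33, -0.16 and -0.33, with -0.81 and -0.65 for the phosphatases. No detection filter ended the calls on Cdk1, Aurkb and Kif2c (adjusted p = 0.0634 to 0.0663). The mean of all detected probes ended those on Cdca8 and Spc24 (0.0849 to 0.150). The cause of these shifts was not tested.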
